A study of Mus musculus with 14 samples.

Results

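The RNA-seq counts of 8 homeobox genes were examined across mesenchymal progenitor populations of early mouse forelimb buds: *Meis1*, *Meis2*, *Meis3*, *Pbx2*, *Pbx3*, *Pbx4*, *Pknox1* and *Pknox2*. These genes were chosen by name, from a table of 24454 genes, and were followed in all 14 libraries. All 8 were present in the table and passed the filter on low counts, as did 15125 genes in all. The libraries were made from poly(A) RNA of cells sorted by FACS from pools of forelimb buds of *Sox9* IRES-EGFP embryos of both genders on a mixed Swiss Albino background, so that every population carried the EGFP allele that reports *Sox9* expression (S9). All populations were gated as 7AAD-negative and negative for CD31, Ter119, CD45, EpCam, Gr1 and CD11b. At E10.5 the populations were limb bud mesenchymal progenitors positive for the NOTCH ligand JAG1 (S9-JAG1+ LMPs, n = 3), progenitors with high surface PDGFRα (S9-Pαhi LMPs, n = 3), osteo-chondrogenic progenitors (S9+Pαhi OCPs, n = 3) and S9-SCA-1+ cells (n = 2), which encompass myoblasts. The S9+PαhiCol2a1+ chondroblasts (n = 3) were sorted at E11.5, by the same gate as the OCPs according to the labels and without a marker for COL2A1. Differences between chondroblasts and the other populations therefore cannot be told apart from differences between stages. The labels number the replicates without saying that they came from separate litters, so p-values measure the spread between these libraries.

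MEIS, PBX and PKNOX proteins belong to the TALE class of homeodomain transcription factors, named after additional residues in a loop of the homeodomain. MEIS and PKNOX proteins bind PBX proteins, and the complexes act as cofactors of HOX proteins on DNA and take part in keeping PBX in the nucleus. In the limb bud, *Meis1* and *Meis2* are known as genes of the proximal mesenchyme that respond to retinoic acid, whereas distal mesenchyme is under the influence of FGFs from the apical ectodermal ridge and expresses 5' HoxA and HoxD genes.

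The libraries held 20316583 to 29162751 counts. Levels are given as CPM, the counts of a gene scaled to a common library total, with totals adjusted by the trimmed mean of M values (TMM), and levels of different genes are compared only after division by gene length (CPM per kilobase). At this depth, 3 counts, which cannot be told from absence, correspond to 0.101 to 0.149 CPM. Transcripts of the sorted proteins followed the gates for *Sox9*, which ranged from 432 to 445 CPM in OCPs and from 411 to 625 CPM in chondroblasts, and was at most 65.4 CPM in the S9- populations. *Jag1* ranged from 228 to 364 CPM in S9-JAG1+ LMPs but also reached 102 to 137 CPM in chondroblasts, compared with at most 21.3 CPM elsewhere. *Pdgfra* ranged from 24 to 44.8 CPM in S9-SCA-1+ cells, from 246 to 248 CPM in S9-JAG1+ LMPs, from 360 to 530 CPM in S9-Pαhi LMPs, from 667 to 746 CPM in OCPs and from 773 to 949 CPM in chondroblasts. *Col2a1* had 695 to 1228 CPM in OCPs, 1273 to 1885 CPM in chondroblasts and at most 168 CPM elsewhere. *Ly6a*, which encodes SCA-1, was low even in the population sorted for it, at 3.1 and 3.36 CPM. The 7 myogenic markers summed to 1500 and 1504 CPM in S9-SCA-1+ cells and to at most 11.4 CPM elsewhere. Red blood cell markers summed to 67.8 CPM in replicate 2 and 1941 CPM in replicate 3 of the S9-SCA-1+ cells, compared with at most 51.4 CPM in other libraries. Markers of endothelium (at most 15.1 CPM), leukocytes (at most 8.84 CPM), ectoderm (at most 17.5 CPM) and neural crest and glia (at most 29.2 CPM) were low throughout.

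Among the chondroblasts, replicate 3 stood apart in the *Meis* genes. It was not the odd library over all genes with at least 20 counts in a pair of libraries. There the chi-square per degree of freedom was 16.8 and 24 for replicate 3 against replicates 1 and 2, and 19.1 between replicates 1 and 2. All 3 *Meis* genes were lower in replicate 3 than in replicates 1 and 2, by 3.93-fold for *Meis1*, 6.4-fold for *Meis2* and 4.91-fold for *Meis3*. Of the 9857 genes that averaged 10 CPM or more in replicates 1 and 2, 18 had a ratio at least as high as that of *Meis1* and 11 a ratio at least as high as that of *Meis2*. The *Pbx* genes and *Pknox1* differed little between these libraries (ratios of 0.889 to 1.06), whereas *Pknox2* was higher in replicate 3 (ratio 0.677). Genes picked after their values were seen show what else moved with the *Meis* genes: the ratio was 11.7 for *Irx3*, 12.7 for *Irx5* and 4.67 for *Rarb*, the retinoic acid receptor gene, and it was 0.843 for *Hoxa13*, 0.809 for *Hoxd13*, 0.786 for *Sox9* and 0.723 for *Col2a1*. The main results that involve chondroblasts are therefore given with and without replicate 3.

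**Figure D1:**
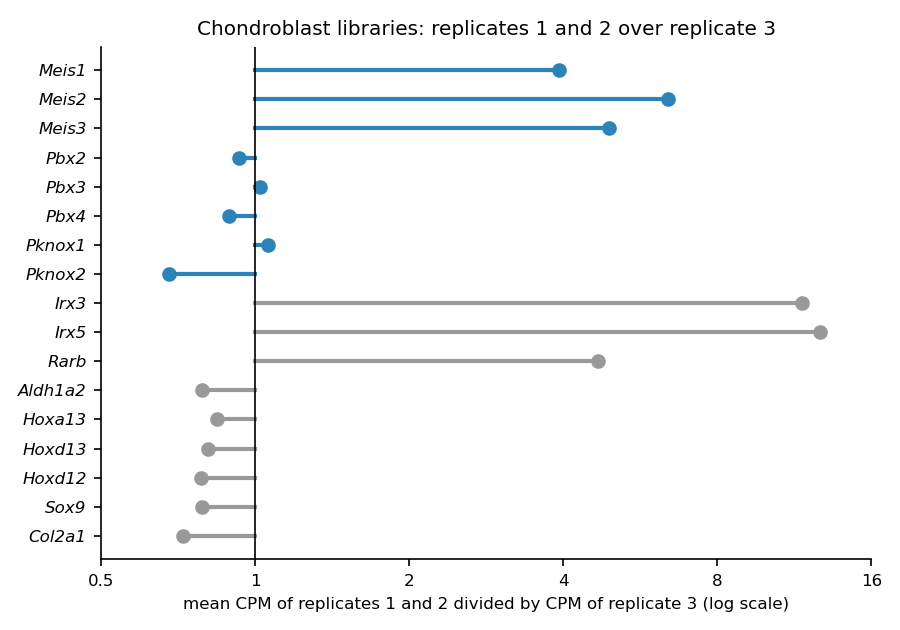
Ratio of the mean CPM of chondroblast replicates 1 and 2 to the CPM of replicate 3 on a log scale, for the 8 *Meis*, *Pbx* and *Pknox* genes (blue) and 9 other genes (grey). Points to the right of 1 were lower in replicate 3, as for the 3 *Meis* genes, *Irx3*, *Irx5* and *Rarb*, and the *Pbx* genes and *Pknox1* lie near 1.

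Across the 5 populations, the *Meis* genes and *Pbx3* were lowest or close to lowest in S9-JAG1+ LMPs, *Meis1* and *Meis2* were highest in OCPs, and *Pknox2* was highest in chondroblasts and S9-SCA-1+ cells. *Pbx2* and *Pknox1* varied little. In a joint test of the 5 populations with edgeR's quasi-likelihood method, 8 of 8 genes passed (Benjamini-Hochberg adjusted p of at most 0.1), as did 74.8% of all tested genes. The ratio of the highest to the lowest population mean was 11.3 for *Pknox2*, 10.2 for *Meis1*, 8.15 for *Meis2*, 4.5 for *Meis3*, 3.93 for *Pbx3*, 2.32 for *Pbx4*, 1.44 for *Pbx2* and 1.26 for *Pknox1*. As in any bulk sample, a lower level can stem from fewer cells that express a gene or from less RNA per cell, and these cannot be told apart.

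**Figure D2:**
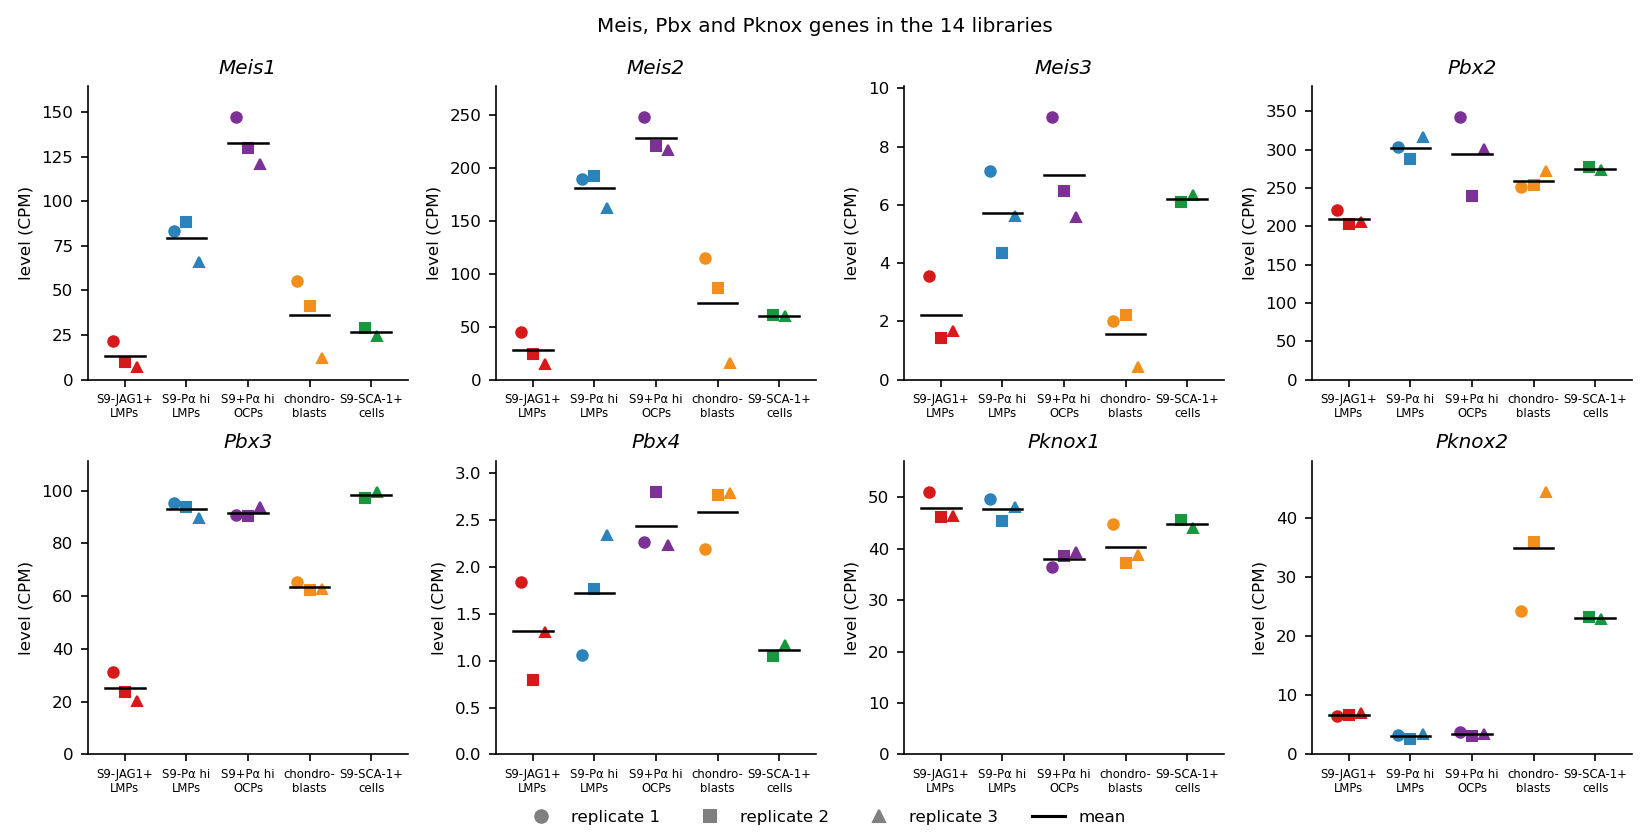
Level of each of the 8 genes in CPM (vertical axis, from 0, with its own scale for each gene) in the 14 libraries, grouped by population. Symbols stand for replicate numbers and lines for population means; *Meis1* and *Meis2* are highest in OCPs, *Pknox2* is high in chondroblasts and S9-SCA-1+ cells, and *Pbx2* and *Pknox1* vary least.

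Each population was then set against the average of the other 4, and a gene was called if its adjusted p was no higher than 0.1 and its log2 fold change was 1.2 or more in either direction. In S9-JAG1+ LMPs 3 of 8 genes were called, all lower, compared with 10.6% of all tested genes. In S9-Pαhi LMPs 2 of 8 were called, *Meis2* higher and *Pknox2* lower (3.84% of all genes). In OCPs 3 of 8 were called, *Meis1* and *Meis2* higher and *Pknox2* lower (5.01% of all genes). Chondroblasts had 2 of 8 called, *Pknox2* higher and *Meis3* lower (12.7% of all genes), and these 2 were also called without replicate 3. In S9-SCA-1+ cells *Pknox2* alone was called, as higher (11.3% of all genes). The median log2 fold change of the 8 genes was -0.77 in S9-JAG1+ LMPs and 0.59 in OCPs, beside medians of -0.01 and 0.02 over all tested genes.

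**Figure D3:**
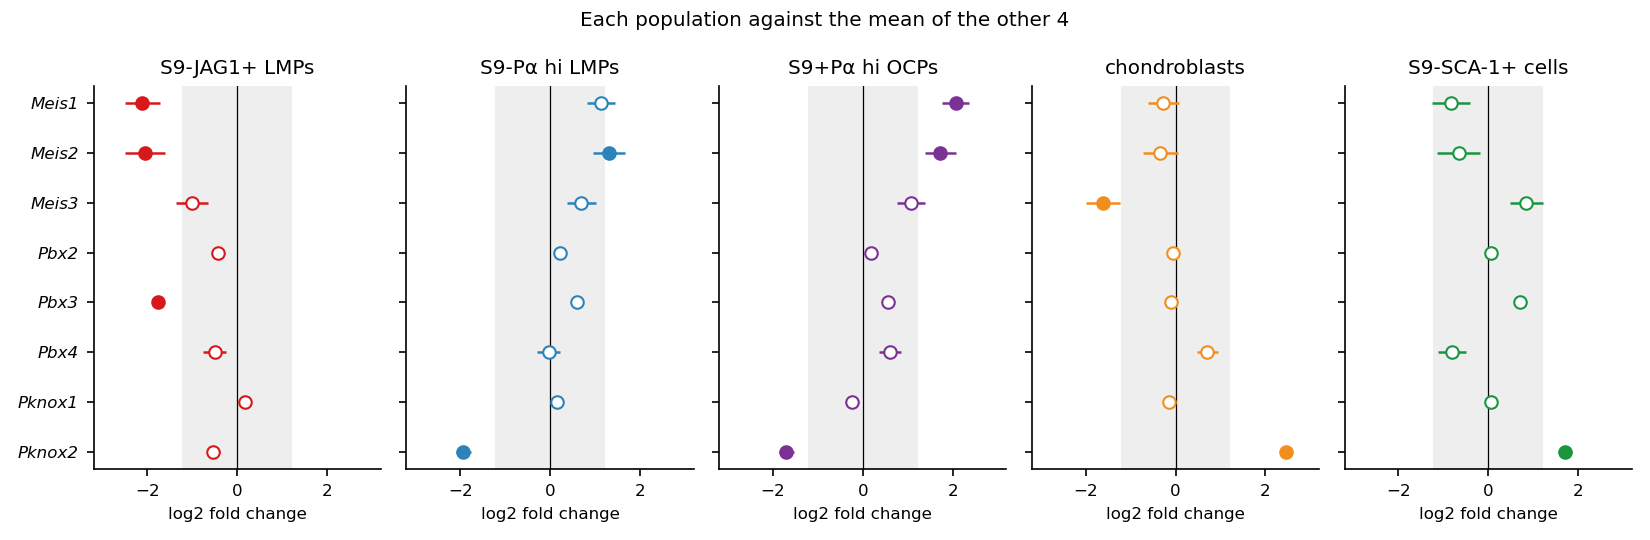
Log2 fold change of the 8 genes in each population against the mean of the other 4 (horizontal axis), with standard errors as bars. Filled points were called, and the grey band marks absolute log2 fold changes under 1.2; *Meis1*, *Meis2* and *Pbx3* lie to the left in S9-JAG1+ LMPs, and *Pknox2* changes side between the populations with high PDGFRα at E10.5 and the chondroblasts and S9-SCA-1+ cells.

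*Meis1*, on the minus strand of chromosome 11 (GRCm38, chr11:18880428-19019651), encodes a founding member of the MEIS family. Its level was 147, 130 and 121 CPM in OCPs and 83.3, 88.5 and 66.2 CPM in S9-Pαhi LMPs. Chondroblasts had 55.1, 41.0 and 12.2 CPM, S9-SCA-1+ cells 28.9 and 24.3 CPM, and S9-JAG1+ LMPs 21.8, 9.97 and 7.25 CPM. The OCP libraries thus lay above all others, and those of S9-JAG1+ LMPs below all but chondroblast replicate 3. *Meis1* was 4.35-fold lower in S9-JAG1+ LMPs than in the average of the other populations (log2 fold change -2.12 ± 0.39 SE, adjusted p = 0.000605) and 4.21-fold higher in OCPs (2.07 ± 0.30, adjusted p = 0.000199). Between single populations, *Meis1* was 10.2-fold higher in OCPs than in S9-JAG1+ LMPs (adjusted p = 5.25e-05) and 6.11-fold higher in S9-Pαhi LMPs than in S9-JAG1+ LMPs (adjusted p = 0.000735). Without S9-JAG1+ replicate 1 these log2 fold changes of 3.35 and 2.61 were 3.95 and 3.21. OCPs and S9-Pαhi LMPs, next to each other at the top, did not overlap but did not pass the test (log2 fold change 0.74, 95% interval -0.06 to 1.55, adjusted p = 0.246). This difference passed when the 2 populations alone were fitted (adjusted p = 0.0134). From S9-Pαhi LMPs to chondroblasts the level dropped by 1.13 on the log2 scale (adjusted p = 0.0374), and by 0.77 without replicate 3 (adjusted p = 0.0684). Chondroblasts and S9-SCA-1+ cells did not pass the test as neighbours (adjusted p = 0.443), but did without chondroblast replicate 3 (-0.82 on the log2 scale for S9-SCA-1+ cells, adjusted p = 0.0622). S9-SCA-1+ cells and S9-JAG1+ LMPs did not pass it either (adjusted p = 0.136), but did without chondroblast replicate 3 (adjusted p = 0.0327) or S9-JAG1+ replicate 1 (adjusted p = 0.0228), and when the 2 populations alone were fitted (adjusted p = 0.0521). Chondroblast replicate 3 is in neither of these populations and was noticed for its *Meis* levels. Its removal left the log2 fold change at 1.03 and acted through the spread shared by all libraries, so that pass is no further evidence. GENCODE exons of *Meis1* share 9.77% of their bases with *Gm37818* on the same strand and 8.51% with *Gm16140* on the other, and the strand setting of the counting is not given in the sources used here, so reads from these genes cannot be told apart there.

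*Meis2* (minus strand, chr2:115861264-116067537) encodes a close relative of MEIS1 and showed the same order of populations. Its level was 248, 221 and 217 CPM in OCPs, 190, 193 and 162 CPM in S9-Pαhi LMPs, and 115, 86.5 and 15.7 CPM in chondroblasts. S9-SCA-1+ cells had 60.8 and 60.1 CPM, and S9-JAG1+ LMPs 44.9, 24.0 and 15.2 CPM. Chondroblast replicate 3 fell within the range of the S9-JAG1+ LMPs, and the OCP and S9-Pαhi libraries lay apart from each other and above the rest. *Meis2* was 4.15-fold lower in S9-JAG1+ LMPs (log2 fold change -2.05 ± 0.45, adjusted p = 0.00215), 3.33-fold higher in OCPs (1.73 ± 0.35, adjusted p = 0.00272) and 2.49-fold higher in S9-Pαhi LMPs (1.32 ± 0.36, adjusted p = 0.0276) than in the average of the other populations. The call in S9-Pαhi LMPs was lost without their replicate 1 (adjusted p = 0.107). *Meis1* in the same comparison had a log2 fold change of 1.14, just under the limit of 1.2, with an adjusted p of 0.0277, and it passed the limit without chondroblast replicate 1 (1.27), S9-Pαhi replicate 3 (1.26) or S9-JAG1+ replicate 1 (1.29). OCPs and S9-Pαhi LMPs did not pass the test (log2 fold change 0.33, 95% interval -0.60 to 1.27, adjusted p = 0.675). Compared with OCPs, *Meis1* was 3.67-fold lower in chondroblasts (log2 fold change -1.87 ± 0.42, adjusted p = 0.00532) and *Meis2* 3.15-fold lower (-1.66 ± 0.49, adjusted p = 0.0231). Without chondroblast replicate 3 both genes were still lower, *Meis1* with a log2 fold change of -1.49 (adjusted p = 0.00681) and *Meis2* with an adjusted p of 0.0147. Against the mean of the other populations, chondroblasts gave -0.27 for *Meis1* and -0.34 for *Meis2* with all libraries and 0.11 for each without replicate 3, and neither value passed the test. *Meis2* did not pass between S9-SCA-1+ cells and chondroblasts (adjusted p = 0.701, and 0.0836 without chondroblast replicate 3) or S9-JAG1+ LMPs (adjusted p = 0.161, with 0.0142 without chondroblast replicate 3, 0.0566 without S9-JAG1+ replicate 1 and 0.0292 when the 2 populations alone were fitted). Between S9-SCA-1+ cells and S9-JAG1+ LMPs, leaving out chondroblast replicate 3 again kept the log2 fold change (1.11) and acted through the shared spread.

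Over the 14 libraries, log2 CPM of *Meis1* and *Meis2* had a Pearson correlation of 0.98. The libraries of a population are not independent points for such a value, and it is given as a description. The ratio of *Meis2* to *Meis1* per kilobase was 1.1, 1.11 and 1.17 in OCPs. It ranged from 1.35 to 1.62 in the other libraries except chondroblast replicate 3, where it was 0.84. The levels of both genes per kilobase were thus closest to each other in OCPs, at 38.6 ± 3.9 (SD, n = 3) for *Meis1* and 43.4 ± 3.29 for *Meis2*.

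In S9-JAG1+ LMPs, replicate 1 had the highest level of each of the 8 genes except *Pknox2*. The *Meis* genes and *Pbx3* were among them, but so were *Pbx2* (221 CPM, beside 203 and 205 CPM in replicates 2 and 3), *Pbx4* and *Pknox1* (51.0 CPM, beside 46.2 and 46.4 CPM). The 7 markers of flank and splanchnic mesoderm summed to 45.8 CPM in this library, and to 12.4 and 12.8 CPM in replicates 2 and 3. *Gata5*, *Gata6* and *Wt1* were called higher in S9-JAG1+ LMPs than in the average of the other populations. *Foxf1* and *Gata4* were not called there, and *Gata4* averaged 0.536 CPM, compared with 2.07 CPM in OCPs and 1.9 CPM in chondroblasts. In S9-Pαhi LMPs, *Foxf1* and *Wt1* were called higher. *Tcf21* and *Nkx2-5* were under the filter. Whether flank cells were present, and their part in the *Meis* levels, was not tested. Without replicate 1 the log2 fold changes of S9-JAG1+ LMPs were larger, at -2.71 for *Meis1*, -2.57 for *Meis2* and -1.96 for *Pbx3*, and *Meis3* was called as well (-1.52, adjusted p = 0.0112).

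Because *Meis1* and *Meis2* moved together, the RefSeq promoter windows of both are shown, from 250 bases before to 50 bases after the start that the RefSeq table gives, with CCAAT boxes in capitals in either orientation (GRCm38.p6, both on the minus strand, *Meis1* at chr11:19018920-19019219 and *Meis2* at chr2:116064570-116064869).
Meis1: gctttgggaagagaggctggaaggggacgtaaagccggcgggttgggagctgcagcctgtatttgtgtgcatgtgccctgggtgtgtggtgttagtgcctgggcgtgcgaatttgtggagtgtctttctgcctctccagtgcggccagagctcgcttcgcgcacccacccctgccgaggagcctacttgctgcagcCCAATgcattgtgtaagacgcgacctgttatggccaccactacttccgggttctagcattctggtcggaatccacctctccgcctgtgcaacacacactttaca
Meis2: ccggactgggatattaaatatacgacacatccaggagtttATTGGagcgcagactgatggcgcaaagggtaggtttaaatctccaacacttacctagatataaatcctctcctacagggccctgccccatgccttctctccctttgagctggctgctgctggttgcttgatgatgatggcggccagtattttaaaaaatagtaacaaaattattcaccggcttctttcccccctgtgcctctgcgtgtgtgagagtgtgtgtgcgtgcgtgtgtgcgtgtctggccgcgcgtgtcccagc
Both windows lie within the RefSeq gene spans given above, downstream of the outermost start. Each window held 1 CCAAT box, which reads ATTGG in that of *Meis2*. Of 32851 promoter windows of this length, 37.4% held CCAAT in either orientation. Searched on both strands as well were TGACAG, bound by MEIS and PKNOX proteins (19.2% of windows), TGATNNAT, a PBX and HOX composite (8.85%), and AGGTCA, a nuclear receptor half-site (16.3%). None of these letters occurred in either window, which says nothing about binding of the factors to these genes. Windows were found for 5 of the 8 genes, and of *Meis3*, *Pbx2* and *Pbx4* only that of *Pbx4* held CCAAT.

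*Meis3* (plus strand, chr7:16174012-16186510), the third gene of the family, was expressed at low levels, with 11 to 222 counts per library. It had 9.00, 6.46 and 5.57 CPM in OCPs, 7.16, 4.36 and 5.63 CPM in S9-Pαhi LMPs and 6.09 and 6.34 CPM in S9-SCA-1+ cells. The level was 3.55, 1.42 and 1.66 CPM in S9-JAG1+ LMPs and 2.02, 2.22 and 0.432 CPM in chondroblasts. All libraries of the first 3 populations lay above all libraries of the last 2. Chondroblasts were 3.06-fold below the mean of the other populations (log2 fold change -1.61 ± 0.38, adjusted p = 0.00218), and the value was -1.22 without replicate 3 (adjusted p = 0.00539). In contrast to *Meis1* and *Meis2*, the level of *Meis3* in S9-SCA-1+ cells was near that of OCPs, with a log2 fold change of -0.17 (95% interval -1.04 to 0.69, adjusted p = 0.783), but the difference between these genes was not tested. S9-SCA-1+ cells were 3.93-fold above chondroblasts (log2 fold change 1.97, adjusted p = 0.00252, and 1.58 without chondroblast replicate 3, adjusted p = 0.00338) and 2.81-fold above S9-JAG1+ LMPs (adjusted p = 0.0281), the latter with an adjusted p of 0.103 without S9-JAG1+ replicate 2 and 0.117 without S9-SCA-1+ replicate 3. Neither OCPs and S9-Pαhi LMPs (adjusted p = 0.654) nor chondroblasts and S9-JAG1+ LMPs (adjusted p = 0.376) differed beyond their spread.

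*Pbx2* (plus strand, chr17:34592259-34597400) encodes a partner of MEIS and PKNOX proteins and had the highest level per kilobase of the 8 genes in every population, from 74.9 ± 3.67 (SD, n = 3) in S9-JAG1+ LMPs to 108 ± 5.11 (n = 3) in S9-Pαhi LMPs. It was measured at 303, 288 and 316 CPM in S9-Pαhi LMPs and at 342, 239 and 301 CPM in OCPs. The level was 277 and 273 CPM in S9-SCA-1+ cells, 251, 254 and 272 CPM in chondroblasts and 221, 203 and 205 CPM in S9-JAG1+ LMPs. No library of another population was as low as those of S9-JAG1+ LMPs, and OCP replicate 2 stood below the other OCPs. Without that library OCPs were above chondroblasts (adjusted p = 0.00291) and S9-SCA-1+ cells (adjusted p = 0.0448), which they were not with it (adjusted p = 0.206 and 0.544). *Pbx2* was 1.44-fold higher in S9-Pαhi LMPs than in S9-JAG1+ LMPs (log2 fold change 0.53 ± 0.10, adjusted p = 0.00222) and 1.4-fold higher in OCPs than in S9-JAG1+ LMPs (adjusted p = 0.00196). Among neighbours in the order of levels, chondroblasts and S9-JAG1+ LMPs alone passed the test (log2 fold change 0.30, adjusted p = 0.0213), with adjusted p of 0.134 without chondroblast replicate 3, 0.129 without S9-JAG1+ replicate 2 and 0.109 without S9-JAG1+ replicate 3. Exons of *Pbx2* share 6.24% of their bases with *Gpsm3* on the same strand.

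*Pbx3* (minus strand, chr2:34171457-34372045), which encodes another PBX partner, separated S9-JAG1+ LMPs from all other populations. The coefficient of variation between replicates was 22.7% in S9-JAG1+ LMPs and 1.58 to 3.09% in the other populations. Its level was 31.3, 23.7 and 20.2 CPM in S9-JAG1+ LMPs and 65.2, 62.4 and 62.7 CPM in chondroblasts. It was 95.2, 93.7 and 89.7 CPM in S9-Pαhi LMPs, 90.9, 90.2 and 93.9 CPM in OCPs and 97.2 and 99.4 CPM in S9-SCA-1+ cells. The populations thus formed 3 levels, with S9-JAG1+ LMPs at the bottom, chondroblasts in between and the other 3 populations at the top. S9-JAG1+ LMPs were 3.41-fold below the mean of the others (log2 fold change -1.77 ± 0.11, adjusted p = 1.47e-08). Chondroblasts were 2.53-fold above S9-JAG1+ LMPs (log2 fold change 1.34, adjusted p = 4.66e-07, and 1.31 without replicate 3, adjusted p = 4.1e-06) and 1.45-fold below OCPs (log2 fold change -0.53 ± 0.12, adjusted p = 0.00418), also without replicate 3 (-0.55, adjusted p = 0.0135). At the top, OCPs and S9-Pαhi LMPs had a log2 fold change of -0.02 (95% interval -0.24 to 0.21, adjusted p = 0.932), and S9-SCA-1+ cells and S9-Pαhi LMPs one of 0.08 (-0.17 to 0.33, adjusted p = 0.703). As chondroblast replicate 3 did not stand apart in *Pbx3*, the change of the *Meis* genes in that library was not accompanied by this gene. The ratio of *Pbx2* to *Pbx3* per kilobase was 7.21 to 10.4 in S9-JAG1+ LMPs and 2.7 to 4.42 in the other libraries.

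*Pbx4* (plus strand, chr8:69832476-69872292), the third *Pbx* gene examined, was close to the lower end of detection, with 19 to 81 counts per library. Its level was 2.19, 2.77 and 2.79 CPM in chondroblasts and 2.27, 2.80 and 2.24 CPM in OCPs. S9-Pαhi LMPs had 1.06, 1.77 and 2.34 CPM, S9-JAG1+ LMPs 1.84, 0.796 and 1.31 CPM and S9-SCA-1+ cells 1.05 and 1.17 CPM. No neighbours in this order passed the test. Chondroblasts and S9-Pαhi LMPs did not pass it either (adjusted p = 0.124), but did without S9-Pαhi replicate 3 (adjusted p = 0.0558) or S9-JAG1+ replicate 1 (adjusted p = 0.0971), and on library totals without TMM scaling (adjusted p = 0.0722). The ends did, with S9-SCA-1+ cells 2.31-fold below chondroblasts (log2 fold change -1.21 ± 0.36, adjusted p = 0.0102, and -1.12 without chondroblast replicate 3, adjusted p = 0.029) and 2.18-fold below OCPs (adjusted p = 0.0239, and 0.13 without S9-SCA-1+ replicate 2).

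*Pknox1* (plus strand, chr17:31564722-31607693), also known as *Prep1*, encodes a PBX partner that is broadly expressed in embryos, and it was the most even of the 8 genes. It had 51.0, 46.2 and 46.4 CPM in S9-JAG1+ LMPs, 49.6, 45.3 and 48.1 CPM in S9-Pαhi LMPs and 45.5 and 44.1 CPM in S9-SCA-1+ cells. The level was 44.9, 37.3 and 38.7 CPM in chondroblasts and 36.4, 38.5 and 39.3 CPM in OCPs. The OCPs lay below all 3 S9- populations, and chondroblasts overlapped with OCPs and S9-SCA-1+ cells. *Pknox1* was 1.26-fold lower in OCPs than in S9-JAG1+ LMPs (log2 fold change -0.33 ± 0.09, adjusted p = 0.00701) and 1.25-fold lower than in S9-Pαhi LMPs (-0.32 ± 0.09, adjusted p = 0.0241), the latter with an adjusted p of 0.108 when only the 2 populations were fitted. No neighbours in the order of means passed the test, although S9-SCA-1+ cells and chondroblasts did without chondroblast replicate 1 (adjusted p = 0.0349) or OCP replicate 2 (adjusted p = 0.0917). Between chondroblasts and S9-JAG1+ LMPs the log2 fold change was -0.25 (adjusted p = 0.021, and 0.0412 without chondroblast replicate 3), and it was -0.12 (adjusted p = 0.23) on library totals without TMM scaling, which moved the median of all genes by 0.12 in this comparison. Exons of *Pknox1* share 2.24% of their bases with *AC166172.4* on the other strand.

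*Pknox2* (minus strand, chr9:36890979-37147342), or *Prep2*, encodes the relative of PKNOX1 with the more restricted expression, and it differed most between populations. It had 24.3, 35.9 and 44.4 CPM in chondroblasts and 23.2 and 23.0 CPM in S9-SCA-1+ cells. The level was 6.55, 6.58 and 6.94 CPM in S9-JAG1+ LMPs, 3.77, 3.18 and 3.51 CPM in OCPs and 3.21, 2.56 and 3.49 CPM in S9-Pαhi LMPs. Every chondroblast library exceeded every other library, the S9-SCA-1+ cells came next, and OCPs and S9-Pαhi LMPs overlapped at the bottom. *Pknox2* was 5.46-fold higher in chondroblasts (log2 fold change 2.45 ± 0.13, adjusted p = 3.79e-09) and 3.26-fold higher in S9-SCA-1+ cells (1.71 ± 0.15, adjusted p = 5.95e-07) than in the average of the other populations. The value for chondroblasts was 2.20 without replicate 3 (adjusted p = 3.19e-08) and 3.07 against an average without S9-SCA-1+ cells. *Pknox2* was 3.24-fold lower in OCPs (-1.70 ± 0.17, adjusted p = 6.77e-06) and 3.81-fold lower in S9-Pαhi LMPs (-1.93 ± 0.17, adjusted p = 4.99e-06). Chondroblasts and OCPs, sorted by the same gate at E11.5 and E10.5, differed 9.96-fold (log2 fold change 3.32 ± 0.19, adjusted p = 2e-07), and without chondroblast replicate 3 the log2 fold change was 3.08 (adjusted p = 4.15e-07). In the same comparison *Meis1*, *Meis2*, *Meis3* and *Pbx3* were lower in chondroblasts, and these 5 of 8 genes that passed the test stand beside 34.8% of all tested genes.

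Among neighbours in the order of *Pknox2* levels, chondroblasts were 1.51-fold above S9-SCA-1+ cells (-0.59 on the log2 scale for S9-SCA-1+ cells, adjusted p = 0.0167), but this passed no longer without chondroblast replicate 3 (-0.35, adjusted p = 0.11). S9-SCA-1+ cells were 3.45-fold above S9-JAG1+ LMPs (adjusted p = 7.38e-06), and S9-JAG1+ LMPs 1.91-fold above OCPs (adjusted p = 0.00178). OCPs and S9-Pαhi LMPs had a log2 fold change of 0.19 (95% interval -0.22 to 0.60, adjusted p = 0.581). The 2 libraries of S9-SCA-1+ cells differed widely in red blood cell markers (67.8 and 1941 CPM) but were alike in *Pknox2*, and with either left out the log2 fold change against the other populations was 1.70 or 1.71. The 5 neural crest and glia markers summed to 21.1 to 29.2 CPM in chondroblasts, with 4 called higher there, and to 3.9 to 21.4 CPM in the other libraries. In OCPs, where *Pknox2* was low, 3 of these markers were also called higher. Their part in the level of *Pknox2* was not tested. Per kilobase, *Pknox2* reached 0.682, 1.21 and 1.44 times the level of *Pknox1* in the chondroblasts and 0.64 and 0.655 times in S9-SCA-1+ cells, and it was at most 0.188 times that level elsewhere.

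In the 10 comparisons between pairs of populations, a gene passed with an adjusted p of at most 0.1 without a limit on its fold change. S9-Pαhi LMPs differed from S9-JAG1+ LMPs in 6 of 8 genes, 5 of them higher and *Pknox2* lower (28.1% of all genes passed). Of the 6, *Meis3* (adjusted p = 0.0342) passed no longer when S9-Pαhi replicate 1 (adjusted p = 0.131), S9-JAG1+ replicate 2 (0.129) or S9-JAG1+ replicate 3 (0.123) was left out. OCPs differed from S9-JAG1+ LMPs in 8 of 8, 6 of them higher and *Pknox1* and *Pknox2* lower (47.7% of all genes). In the latter comparison *Pbx4* (adjusted p = 0.0365) failed without S9-JAG1+ replicate 2 (adjusted p = 0.147). Chondroblasts differed from S9-JAG1+ LMPs in 7 of 8, with only *Meis3* not passing (65.9% of all genes). There, *Meis2* (adjusted p = 0.0282) failed without chondroblast replicate 1 (adjusted p = 0.17) or S9-JAG1+ replicate 3 (adjusted p = 0.117). S9-SCA-1+ cells differed from S9-JAG1+ LMPs in 4 of 8, all higher (31.2% of all genes), of which *Pbx2* (adjusted p = 0.0214) failed without S9-SCA-1+ replicate 2 (adjusted p = 0.111). OCPs and S9-Pαhi LMPs, the pair with fewest differences among the 8 genes, differed in *Pknox1* alone, compared with 20.1% of all genes.

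Chondroblasts differed from S9-Pαhi LMPs in 7 of 8 genes, 6 of them lower and *Pknox2* 11.3-fold higher (log2 fold change 3.50, and 3.24 without chondroblast replicate 3), compared with 56.2% of all genes. All 7 also passed without that replicate. The smallest of these differences, -0.22 on the log2 scale for *Pbx2* (adjusted p = 0.0895), passed no longer under 8 of the alternatives. S9-SCA-1+ cells differed from S9-Pαhi LMPs in 3 of 8 (30.5% of all genes), with *Meis1* 2.98-fold and *Meis2* 3-fold lower and *Pknox2* 7.52-fold higher. With 1 of the 2 S9-SCA-1+ libraries left out, the lone library is assumed to vary like the other populations. The log2 fold change of *Meis1*, -1.58 with both, was then -1.71 without replicate 2 (adjusted p = 0.113) and -1.46 without replicate 3 (adjusted p = 0.189). That of *Meis2*, -1.59 with both, was -1.59 (adjusted p = 0.209) and -1.58 (adjusted p = 0.234). *Meis2* also failed without S9-Pαhi replicate 1 (adjusted p = 0.111) or replicate 2 (adjusted p = 0.112). S9-SCA-1+ cells differed from OCPs in 5 of 8, with *Meis1*, *Meis2* and *Pbx4* lower and *Pknox1* and *Pknox2* higher (46.9% of all genes). Of these, *Meis2* (adjusted p = 0.0175) failed without S9-SCA-1+ replicate 3 (adjusted p = 0.106), and *Pknox1* (adjusted p = 0.0647) failed without OCP replicate 1 (0.119), S9-SCA-1+ replicate 2 (0.231) or S9-SCA-1+ replicate 3 (0.159). They differed from chondroblasts in 4 of 8, with *Meis3* and *Pbx3* higher and *Pbx4* and *Pknox2* lower (63.6% of all genes). These comparisons share populations and are not independent of each other.

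Summed per kilobase, the 3 *Meis* genes made up 36.7 ± 2.52% (SD, n = 3) of the RNA of the 8 genes in OCPs, 28.4 ± 2.81% in S9-Pαhi LMPs and 9.32 ± 4.1% in S9-JAG1+ LMPs. In S9-SCA-1+ cells their share was 12.8 and 13.4%, and in chondroblasts it ranged from 4.56% in replicate 3 to 22.9%. The *Pbx* genes provided the largest share in every library, between 56.2 and 81.6%, mainly through *Pbx2*. The *Pknox* share was 9.95 to 14.2% in chondroblasts and 10.9 to 12.4% in S9-JAG1+ LMPs, and it was lowest in OCPs at 3.55 to 4.5%. The *Pknox* share was similar in these 2 populations by different genes, since *Pknox1* made up most of it in S9-JAG1+ LMPs and *Pknox2* exceeded *Pknox1* in 2 of the 3 chondroblast libraries.

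**Figure D4:**
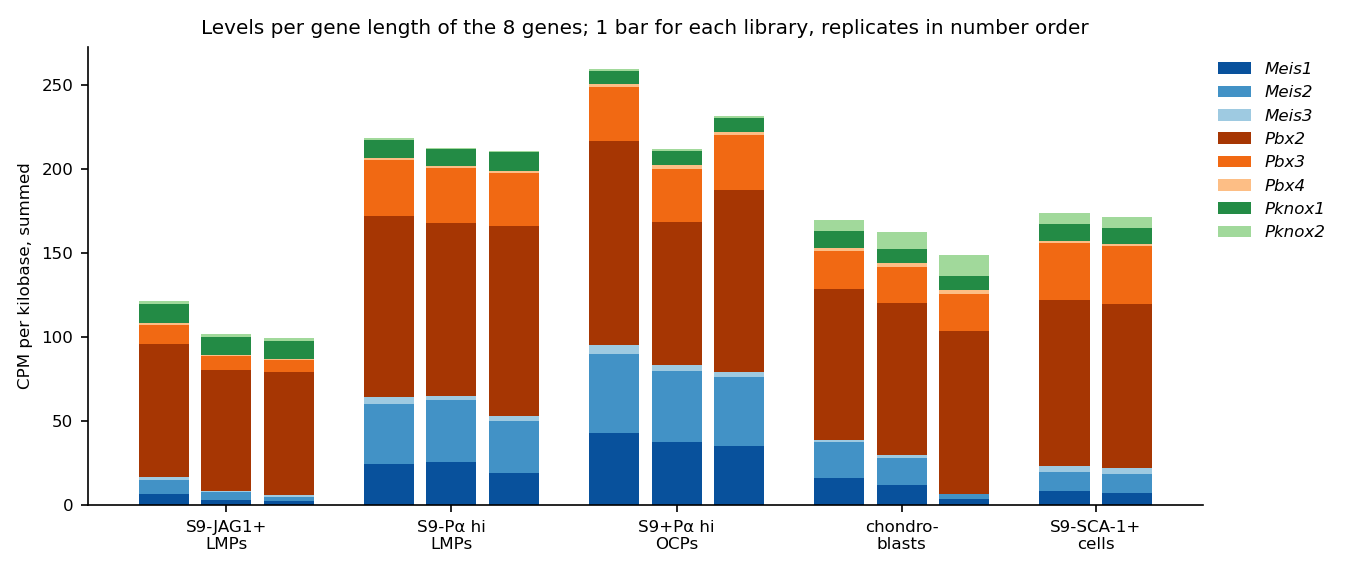
Level per gene length of the 8 genes, stacked, in CPM per kilobase (vertical axis, from 0), with 1 bar for each library. *Meis* genes (blue) take the largest share in OCPs and S9-Pαhi LMPs, *Pbx2* (brown) is the largest part of every bar, and *Pknox2* (light green) is visible in chondroblasts and S9-SCA-1+ cells.

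The genes around this family were described by lists of the retinoic acid pathway, of other TALE genes, of HoxA and HoxD genes and of FGF targets. From these same libraries, the authors had already reported high levels of 5' Hox genes and of FGF targets in S9-JAG1+ LMPs. Calls from those lists in S9-JAG1+ LMPs were thus partly known beforehand and are given as a description. In S9-JAG1+ LMPs, 5 of 17 tested retinoic acid pathway genes were called against the mean of the other populations, 2 of them higher. *Cyp26b1*, which encodes an enzyme that degrades retinoic acid, ranged from 789 to 861 CPM there and was at most 270 CPM elsewhere (log2 fold change 2.47 ± 0.08, adjusted p = 4.9e-11). *Cyp26a1*, for a related enzyme, was the other gene called higher, at 0.126 to 1.78 CPM, with at most 0.718 CPM elsewhere and no counts in S9-SCA-1+ cells. *Aldh1a2*, for the enzyme that makes retinoic acid, was lower (-2.09 ± 0.40, adjusted p = 0.000788), with 0.634 to 3.04 CPM in S9-JAG1+ LMPs, 2.03 to 3.54 CPM in S9-Pαhi LMPs, 4.58 to 9.15 CPM in OCPs and 72.2 to 115 CPM in chondroblasts. Between single populations, S9-JAG1+ LMPs were lower than OCPs and chondroblasts in this gene, but did not pass the test against S9-Pαhi LMPs or S9-SCA-1+ cells. *Aldh1a2* was as low in S9-SCA-1+ cells, at 0.699 to 0.855 CPM, and was called lower there too. *Rarb* is described with the genes most like the *Meis* genes. The median log2 fold change of the list was -0.52 in S9-JAG1+ LMPs and 0.15 in OCPs, where 3 genes were called higher and 1 lower. In S9-Pαhi LMPs 2 genes were called higher and 2 lower, in chondroblasts 4 higher and 1 lower, and in S9-SCA-1+ cells 2 higher and 7 lower. For this list and those below, the shares of all tested genes called were 10.6% in S9-JAG1+ LMPs, 3.84% in S9-Pαhi LMPs and 5.01% in OCPs. They were 12.7% in chondroblasts and 11.3% in S9-SCA-1+ cells.

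Of the 9 5' HoxA and HoxD genes, 5 were called higher in S9-JAG1+ LMPs and none lower (median log2 fold change 1.47), led by *Hoxa13* (4.84 ± 0.12), *Hoxd13* (4.50 ± 0.13) and *Hoxd12* (3.30 ± 0.13). In OCPs none was called higher and 4 lower (median -0.60), with *Hoxa13* (-3.46 ± 0.20) and *Hoxd13* (-2.11 ± 0.18) first. In S9-Pαhi LMPs *Hoxd9* was called higher and *Hoxa13* lower. Chondroblasts had 3 of the list called higher and none lower, and S9-SCA-1+ cells none higher and 6 lower. *Hoxd9* was lower in S9-JAG1+ LMPs (81.8 to 109 CPM) than in S9-Pαhi LMPs (186 to 259 CPM) and OCPs (149 to 182 CPM), and passed both pair tests. Of the 11 3' HoxA and HoxD genes, none was called in S9-JAG1+ LMPs or OCPs, with medians of -0.20 and 0.18. The summed 5' list was 2921, 3217 and 3468 CPM in S9-JAG1+ LMPs, where *Meis1* and *Meis2* together had 66.8, 34.0 and 22.5 CPM. In OCPs the sums were 959, 947 and 959 CPM beside 396, 351 and 338 CPM of the *Meis* genes. S9-Pαhi LMPs had more of the 5' list than OCPs, with 1322, 1234 and 1529 CPM, beside 273, 281 and 228 CPM of the *Meis* genes. Chondroblasts had 1447, 1753 and 1994 CPM of the 5' list beside 170, 128 and 28.0 CPM. S9-SCA-1+ cells were low in both, with 867 and 802 CPM of the 5' list and 89.7 and 84.4 CPM of the *Meis* genes. Of 10 FGF targets and distal genes, 7 were called higher in S9-JAG1+ LMPs, with *Spry4*, for an inhibitor of FGF signalling, at 2.68 ± 0.13, *Spry1* at 2.19 ± 0.11 and *Msx1* at 2.09 ± 0.11 on the log2 scale. In S9-Pαhi LMPs 3 were called higher, *Msx1* (2.25 ± 0.11), *Lhx2* (2.14 ± 0.14) and *Lhx9* (1.43 ± 0.10), and *Msx1* had 268 to 295 CPM there beside 226 to 287 CPM in S9-JAG1+ LMPs. The list summed to 2089 to 2335 CPM in S9-JAG1+ LMPs, 1493 to 2083 CPM in S9-Pαhi LMPs and at most 793 CPM in the other populations. In OCPs and in chondroblasts 3 of the list were called lower, and in S9-SCA-1+ cells 5.

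**Figure D5:**
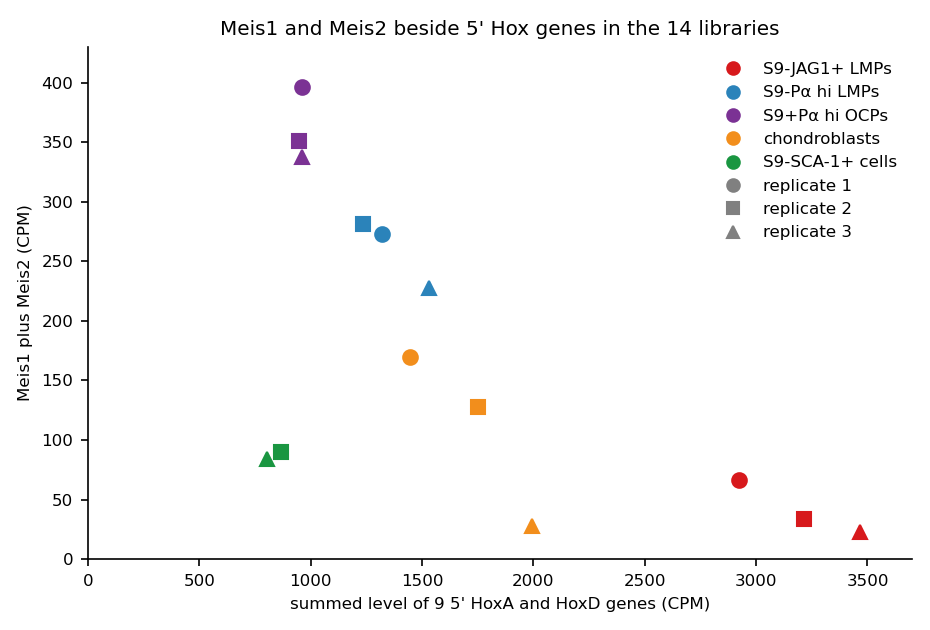
Summed level of *Meis1* and *Meis2* (vertical axis, CPM) against the summed level of 9 5' HoxA and HoxD genes (horizontal axis, CPM), with 1 point for each of the 14 libraries. OCPs lie at 338 to 396 CPM of the *Meis* genes with 947 to 959 CPM of the 5' genes, S9-JAG1+ LMPs at 22.5 to 66.8 CPM with 2921 to 3468 CPM, and S9-SCA-1+ cells are low in both.

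Of the 8 tested genes in the list of other TALE homeobox genes, *Irx5* (log2 fold change -1.79 ± 0.51, adjusted p = 0.0119) and *Irx3* (adjusted p = 0.0337, 9.51 to 37 CPM compared with 203 to 235 CPM in OCPs), which encode Iroquois factors needed for proximal and anterior limb structures, were called lower in S9-JAG1+ LMPs and none was called higher. In OCPs *Irx5* (2.70 ± 0.39, adjusted p = 0.000198), *Irx3* (2.62 ± 0.42, adjusted p = 0.000466) and *Irx6* (2.09 ± 0.51, adjusted p = 0.00946) were called higher and 1 gene lower. *Irx6* was under 1 CPM in every library, with at most 0.933 CPM in OCPs. In S9-Pαhi LMPs *Irx3* alone was called, as higher, and in chondroblasts 2 genes of this list were called higher and none lower. In S9-SCA-1+ cells 4 were called lower, *Irx3* and *Irx5* among them, and none higher (median log2 fold change -1.47).

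By the Pearson correlation of log2 CPM over the 14 libraries, among 12169 tested genes with an average of at least 1 log2 CPM, the 5 genes most like *Meis1* were *Ptn* (0.98), *Nr2f1* (0.96), *Rarb* (0.96), *Irx5* (0.94) and *Hoxb3* (0.94). Those most like *Meis2* were *Ptn* (0.97), *Hoxb3* (0.97), *Rarb* (0.95), *Irx3* (0.94) and *Irx5* (0.94). The 14 points share populations and, in chondroblast replicate 3, a library that was low in several of these genes. *Ptn* encodes the secreted factor pleiotrophin and ranged from 565 to 782 CPM in OCPs, from 565 to 633 CPM in S9-Pαhi LMPs and from 160 to 290 CPM in S9-JAG1+ LMPs. *Rarb* had 35.9 to 44.7 CPM in OCPs, 28.4 to 31.7 CPM in S9-Pαhi LMPs, 3.93 to 20.7 CPM in chondroblasts, 5.11 to 5.52 CPM in S9-SCA-1+ cells and 3.29 to 7.62 CPM in S9-JAG1+ LMPs. *Nr2f1*, for an orphan nuclear receptor, ranged from 155 to 210 CPM in OCPs and from 4.56 to 16.4 CPM in S9-JAG1+ LMPs. *Hoxb3*, from the 3' part of the HoxB cluster, ranged from 58.2 to 79.2 CPM in OCPs, from 51 to 57.7 CPM in S9-Pαhi LMPs and from 10 to 13.3 CPM in S9-JAG1+ LMPs. As the 6 genes were chosen for this likeness, an order of populations shared with the *Meis* genes follows from the choice. *Irx3*, *Irx5* and *Rarb* had their lowest mean in S9-SCA-1+ cells, unlike *Meis1* and *Meis2*. Their S9-SCA-1+ libraries lay within the range of the S9-JAG1+ LMPs, however, and none of them passed the test between these populations.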

How the data were processed

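The deposited table holds raw counts per gene for 14 libraries. According to their methods, the authors aligned single-end reads of 50 cycles to the mouse genome mm10 with STAR, which the submitters' processing notes also name, kept 1 position for each read, and counted reads in exons of RefSeq mRNAs with qCount of QuasR. The strand setting and the STAR version are not given in the sources used here. The gene length in the same table was used for levels per kilobase. Entrez identifiers were matched to symbols for 24374 of 24454 genes, and the other 80 held 0.358% of the counts. Positions came from RefSeq and strands and exon overlaps from GENCODE, both on GRCm38, and promoter windows from RefSeq on GRCm38.p6.

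The members and gene lists were chosen with earlier results of these data known. Analyses used R 4.3.3 with edgeR 4.0.16 and Python 3.11.15 with numpy 2.4.6, pandas 2.3.3 and matplotlib 3.10.9. The function filterByExpr, given the populations, kept 15125 genes, totals were scaled by TMM (factors of 0.957 to 1.06), and a quasi-likelihood F test was fitted to all 14 libraries with 1 mean for each population. Adjustment of p-values followed Benjamini and Hochberg across the whole table of tested genes. The standard error is the log2 fold change divided by the square root of F, and 95% intervals were computed from it by the normal approximation. The common biological coefficient of variation was 13.4%. For correlations, log2 CPM used a prior count of 2. Replicates of a population differed by more than counting noise (chi-square per degree of freedom of 8.2 to 81.1), so none was a repeated deposit.

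Named were the 8 members, the 5 genes most like *Meis1* and *Meis2*, the genes of the gates and at most 3 genes of each list with the largest called fold change, together with genes marked as picked later. Alternatives were DESeq2 1.42.0 size factors and tests, library totals without scaling, 2 other filters on low counts, replicate numbers as a block, other limits, fits of 2 populations, averages without S9-SCA-1+ cells, and each library left out. The procedure was also run on simulated counts of independent libraries, none of them made to stand apart as chondroblast replicate 3 did. No result here rests on that run.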

Additional observations from a re-analysis of the deposited data

How the results depend on the processing

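Of the 40 comparisons of a gene in 1 population with the mean of the other 4, 11 were called, and this count ranged from 10 to 13 with 1 library left out. It was 27 without a limit on the fold change and 11 under every other setting that kept all 14 libraries and 5 populations. Of the 80 comparisons of a gene between pairs of populations, 50 passed, with 44 to 53 when 1 library was left out, 47 on library totals without TMM scaling, 47 with adjusted p limited to 0.05, and 30 with the limit of 1.2 on the log2 fold change as well. The joint test passed 8 genes with any 1 library left out, a range of 8 to 8, and under every other setting. No called value changed direction, whereas 33 values that had not passed the test changed sign. On library totals *Pknox1* lost its call between chondroblasts and S9-Pαhi LMPs (adjusted p = 0.209) and between S9-SCA-1+ cells and OCPs (adjusted p = 0.12), and *Pbx2* between chondroblasts and S9-Pαhi LMPs (adjusted p = 0.3), whereas *Pbx4* gained one there (0.70, adjusted p = 0.0722). On these totals the median of all genes moved by 0.11 between chondroblasts and S9-Pαhi LMPs and by -0.04 between S9-SCA-1+ cells and OCPs. Between chondroblasts and S9-Pαhi LMPs, *Pbx2* moved from -0.22 to -0.12 and *Pknox1* from -0.24 to -0.14. The part of this shift in the changed calls was not tested. Averages without S9-SCA-1+ cells added a call for *Meis3* in OCPs (log2 fold change 1.37, adjusted p = 0.00904), as did leaving out OCP replicate 3 (adjusted p = 0.042). Of the 5 genes most like *Meis1*, and of those most like *Meis2*, 3 each were also among the 5 by Spearman correlation. *Meis3* and *Pbx4*, with as few as 11 and 19 counts, are the genes that depth limits most.

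Pairing of libraries by replicate number was not detected over all genes. Over 26 pairs of libraries with the same number, the deviations from the population means had correlations from -0.181 to 0.308 with a median of -0.00476, 4 of them above 0.1, and 5 of 14 libraries correlated best with their own number. With so few libraries per population, these values cannot exclude that populations shared pools of forelimb buds. Summed red blood cell markers of replicates 1, 2 and 3 were 34.6, 6.32 and 24.2 CPM in OCPs and 25.2, 4.81 and 23.3 CPM in S9-Pαhi LMPs. In S9-JAG1+ LMPs they ran otherwise, at 17.2, 25.6 and 2.3 CPM. With the replicate block, 11 of 40 and 52 of 80 comparisons passed, and 8 genes the joint test. The block added S9-SCA-1+ cells against S9-JAG1+ LMPs for *Meis1* (log2 fold change 1.38, adjusted p = 0.0129) and *Meis2* (1.48, adjusted p = 0.0316).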
